A study of Mus musculus with 4 samples.

Results

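The genes of the motile cilium axoneme were followed across 4 microarrays of mouse cochlea. The list held 33 genes of 30028 gene names on the array, found by matching gene names to 49 probes. It was chosen by the known large differences in *Wdr16* (now *Cfap52*) between these 4 arrays, to which other genes of the axoneme were added, so every value below is a description and none is tested. Of the 33 members, 30 had a probe well above background on at least 1 array, among 21942 genes that did, and 18 were well above background on all 4 arrays. *Spag16*, *Spag17* and *Ak7* were not well above background on any array.

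Each of the 4 groups was 1 array of pooled male and female cochlear RNA from mice of the B6J (C57BL/6J) background at 5 weeks of age. Wild-type mice (WT) gave 1 array without toxin (WT DT-) and 1 with it (WT DT+), and transgenic *Prestin*-*hDTR* mice, labelled OHC-TRECK, likewise gave 1 without (*Prestin*-*hDTR* DT-) and 1 with it (*Prestin*-*hDTR* DT+). DT is diphtheria toxin, given at 50 μg/kg body weight, 7 days before dissection. *Prestin*-*hDTR* mice carry a transgene in which the promoter of *Slc26a5* (prestin, the motor protein of outer hair cells) drives a modified human HB-EGF, the toxin receptor, so that DT removes outer hair cells. The mice came from 1 transgenic line, and RNA of whole cochleae was pooled, so fewer cells of a type and less RNA per cell cannot be told apart. With 1 array per group there was no replicate. Within a comparison the factor that differed, genotype or toxin, cannot be told apart from mice and array.

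A motile cilium is built on a ring of microtubule doublets around a central pair. Dynein arms on the doublets slide them past each other, radial spokes and the central pair coordinate that sliding, and tektins and other proteins line the inside of the doublets. Multiciliated cells of the airway, middle ear, oviduct and ventricles switch on this gene set through Foxj1 and the RFX transcription factors. Hair cells of the inner ear form a single cilium, the kinocilium, that uses part of it. Whether cochlear hair cells still had that cilium at the age sampled cannot be read from these arrays.

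The signal of 1 probe stands for each gene, and the probes of the members on which the results turned are shown so that they can be found again. Each probe was 60 bases long, and the first 30 bases are given 5′ to 3′, with positions in build mm9 from the array files. Exon and UTR positions were not assigned, since no annotation of that build was used.
*Wdr16* probe, minus strand, chr11:67738471-67738530: cataactccagaaccgggtttgatttctca
*Zmynd10* probe, plus strand, chr9:107453306-107453365: agcactgggagaagcacggaaagacatgtg
*Tekt1* probe, minus strand, chr11:72158231-72158290: catccgcgcagaggccatctgctgatagga
*Foxj1* probe, minus strand, chr11:116192214-116192273: ggagagactaatatagtgaatgtagttata
*Rsph9* probe, minus strand, chr17:46266279-46266338: catctacgtaggcacaggagagaagaacat
The first 3 of these probes differed between arrays and the last 2 did so by less than 0.5 on the log2 scale. Across the 30 members the median GC content of the probes used was 41.7%, as it was over all genes.

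Arrays were comparable in quality but not equal in sensitivity. The share of probes well above background ran from 62.2% to 70.6%, no spot was saturated, and the 75th percentile of the signal ran from 2728 to 3162 units. Between 299 and 311 probes spotted several times gave a median SD of 0.0607 to 0.0713 on the log2 scale within an array. All signals below are log2 of the signal divided by the array's 75th percentile, and their errors are those of the scanner software for single spots, which leave out the spread between mice. Of the members, 25 were well above background in WT DT-, 24 in WT DT+, 29 in *Prestin*-*hDTR* DT- and 19 in *Prestin*-*hDTR* DT+ cochleae. A member not well above background on an array was raised to the lowest signal measured well above background there, between -6.39 and -5.44, unless its own signal was higher, and its fold is then given as a lower bound.

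*Wdr16*, a protein of the doublet lumen, showed the largest differences of all members. Its log2 signal was -5.58 ± 0.27 in WT DT-, -2.50 ± 0.15 in WT DT+, -2.20 ± 0.15 in *Prestin*-*hDTR* DT- and -5.41 ± 0.32 in *Prestin*-*hDTR* DT+ cochleae (error-model SD, n = 1 array each). WT DT+ and *Prestin*-*hDTR* DT- cochleae were thus high, and the other 2 arrays low. The signal was 8.43-fold higher in wild-type cochleae with DT than without, and 9.25-fold lower in *Prestin*-*hDTR* cochleae with DT than without. Without DT it was 10.4-fold higher in *Prestin*-*hDTR* than in wild-type cochleae, and with DT 7.49-fold lower. The lower of the 2 high arrays exceeded the higher of the 2 low arrays by 7.49-fold, the widest such gap of any gene measured. *Wdr16* had only 1 probe on the array.

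**Figure D1:**
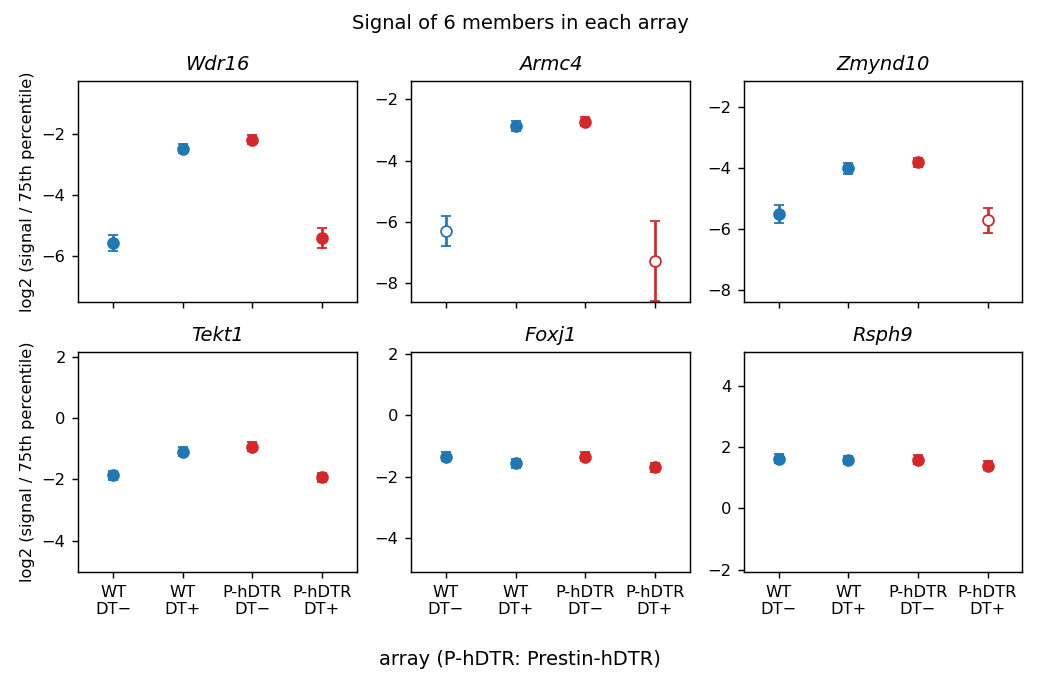
Log2 signal over the 75th percentile of each array for 6 members, with 1 point per array, error bars giving the spot error of the scanner software, and open points not well above background. *Wdr16*, *Armc4*, *Zmynd10* and *Tekt1* are higher in WT DT+ and *Prestin*-*hDTR* DT- (P-hDTR) cochleae than in the other 2, and *Foxj1* and *Rsph9* stay within 0.35 and 0.23 over the 4 arrays.

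The arrangement seen in *Wdr16*, with both WT DT+ and *Prestin*-*hDTR* DT- above both other arrays, was found in 17 of the 30 members, where 11.3% of all genes had it. The opposite arrangement was found in 3 members, where 18.1% of all genes had it. With a gap of 2-fold or more between the nearest arrays, 3 members had the arrangement of *Wdr16*, and they were *Wdr16*, *Armc4* and *Zmynd10*, where 27 genes or 0.123% of all genes had it. No member had the opposite arrangement at 2-fold, where 0.041% of all genes had it. In *Dnaic1*, *Mns1*, *Rsph1*, *Ccdc113* and *Dnali1* the gap was 0.03, 0.07, 0.10, 0.12 and 0.26, below the error of a single comparison. In *Armc4*, *Zmynd10*, *Spag6* and *Ccdc40* it was a gap to the floor. *Armc4*, *Spag6* and *Ccdc40* passed the filter only through the 2 arrays in which they were high. Among the 18 members well above background on all 4 arrays, 11 had the arrangement, and only *Wdr16* by 2-fold. The share of all such genes was not formed. Since the list was drawn up with the *Wdr16* values known, the shares over all genes only set a scale.

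**Figure D2:**
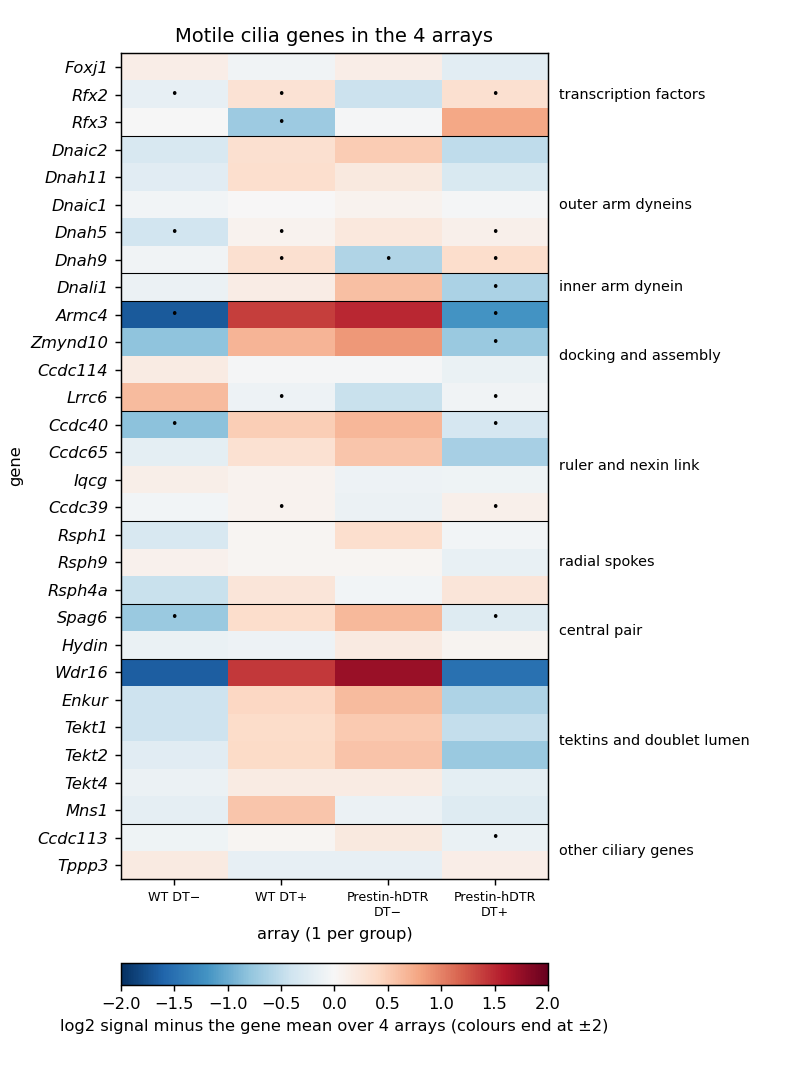
Log2 signal of the 30 measured members minus the mean of each gene over the 4 arrays (columns, 1 array per group), by role (rows), with dots for signals not well above background. Red marks signals above and blue below the gene mean. *Wdr16*, *Armc4* and *Zmynd10* carry the strongest colours, the tektins and doublet lumen genes other than *Mns1* are separated in the same direction, and the transcription factors are not.

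Genes for attaching and assembling dynein arms were divided. *Armc4*, needed for docking the outer arm, had a log2 signal of -2.86 ± 0.16 in WT DT+ and -2.73 ± 0.15 in *Prestin*-*hDTR* DT- cochleae, and was not well above background in the other 2 (-6.29 and -7.27). It was at least 8.36-fold higher with DT than without in wild-type cochleae and at least 6.57-fold lower with DT in *Prestin*-*hDTR* cochleae. *Zmynd10*, which helps assemble dynein arms in the cytoplasm, had signals of -5.51, -4.01, -3.82 and -5.70 in WT DT-, WT DT+, *Prestin*-*hDTR* DT- and *Prestin*-*hDTR* DT+ cochleae, the last not well above background. These gave 2.81-fold higher signal with DT in wild-type and at least 3.07-fold lower with DT in *Prestin*-*hDTR* cochleae. *Lrrc6*, another assembly factor, went the other way without DT, at -4.74 in wild-type and -5.82 in *Prestin*-*hDTR* cochleae, 2.12-fold lower, and was not well above background in either DT-treated array. *Ccdc114*, a docking complex gene, kept within 0.29 over the arrays, but its probe was designed on a cDNA, and its RefSeq-transcript probe never rose well above background.

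All 6 tektins and doublet lumen genes, with *Wdr16* itself counted, had the arrangement of *Wdr16*, *Mns1* by less than its error. Of all genes, 11.3% had it. *Tekt1*, a filament protein of the doublet wall and the brightest of the 6, had signals of -1.86, -1.09, -0.94 and -1.93 in the same order, with errors of 0.14 to 0.15. Its second probe gave -2.39, -1.57, -1.27 and -2.33. Both probes placed WT DT+ and *Prestin*-*hDTR* DT- cochleae above the other 2, in each case under 2-fold for the brighter probe. *Tekt2* had signals of -4.02, -3.41, -3.22 and -4.54, and was 2.49-fold lower with DT in *Prestin*-*hDTR* cochleae. *Enkur*, which lines the doublet lumen, had signals of -4.20, -3.38, -3.16 and -4.41, and was 2.05-fold higher in *Prestin*-*hDTR* DT- than in WT DT- cochleae and 2.38-fold lower with DT in *Prestin*-*hDTR*. *Tekt4* and *Mns1* changed less. *Tekt4* ranged over 0.37, and *Mns1*, whose probe was spotted at least 8 times and so had errors of 0.05 to 0.06, was high only in WT DT+ cochleae, at -2.73 against -3.55 to -3.41.

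Among outer arm dyneins, 3 of 5 members had the arrangement of *Wdr16*, where 11.3% of all genes had it. In *Dnaic1*, 1 of the 3, the gap was 0.03, below the error of a single comparison. *Dnaic2*, an intermediate chain, had signals of -4.08, -3.45, -3.25 and -4.27, 2.02-fold lower with DT in *Prestin*-*hDTR* cochleae. *Dnah11*, a heavy chain, had signals of -4.25, -3.68, -3.83 and -4.33, always under 2-fold. *Dnaic1*, the other intermediate chain, stayed between -1.76 and -1.63. The heavy chain *Dnah5* was well above background only in *Prestin*-*hDTR* DT- cochleae (-5.34), and *Dnah9* only in WT DT- cochleae (-5.86), the latter by a cDNA probe. The inner arm gene *Dnali1* had signals of -4.66, -4.40, -3.95 and -5.18, and was at least 2.35-fold lower with DT in *Prestin*-*hDTR* cochleae.

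The ruler and nexin link genes, which set the spacing of arms and spokes and tie doublets together, were split 2 and 2. *Ccdc40* was well above background only in the 2 arrays in which *Wdr16* was high, at -4.62 and -4.44, at least 2.48-fold higher with DT in wild-type cochleae. *Ccdc65* had signals of -3.74, -3.24, -2.98 and -4.19, 2.33-fold lower with DT in *Prestin*-*hDTR* cochleae. *Ccdc39*, the partner of *Ccdc40*, was measured in WT DT- and *Prestin*-*hDTR* DT- cochleae alone, at -5.60 and -5.66. *Iqcg* stayed between -4.05 and -3.83.

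Spoke and central pair genes varied from probe to probe. *Rsph9*, a spoke head gene and the brightest member, lay between 1.39 and 1.63. *Rsph1* was lowest in WT DT- (-2.85) and highest in *Prestin*-*hDTR* DT- cochleae (-2.20), and its second, dimmer probe had the same high pair, at -5.34 and -5.12 against -5.65 and -6.32. *Rsph4a* was lowest in WT DT- cochleae (-4.88) and equal at -4.18 in both DT-treated arrays. *Spag6*, a central pair gene whose probe belongs to the transcript now named *Spag6l*, was well above background only in WT DT+ (-4.83) and *Prestin*-*hDTR* DT- cochleae (-4.54), at least 2.14-fold and 2.61-fold above WT DT-. *Hydin* stayed between -4.68 and -4.37. *Tppp3*, a microtubule-bundling gene that is not confined to cilia, was the one member clearly reversed, at 0.46, 0.12, 0.12 and 0.41. *Ccdc113*, at -5.39, -5.27, -5.11 and -6.13, was close to the floor.

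The transcription factors that switch the set on did not follow *Wdr16*. *Foxj1*, the master regulator of motile cilia, had signals of -1.35, -1.56, -1.35 and -1.70. *Rfx3* had signals of -4.55, -5.26, -4.56 and -3.77, highest in *Prestin*-*hDTR* DT+ cochleae, and at least 2.82-fold higher in *Prestin*-*hDTR* DT+ than in WT DT+ cochleae. Its other probes were at or near background. *Rfx2* was well above background only in *Prestin*-*hDTR* DT- cochleae (-6.19), at the edge of detection.

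Comparison by comparison, the members at 2-fold or more lay mostly on one side. *Prestin*-*hDTR* DT- and WT DT- cochleae differed in genotype, mice and array, and neither had toxin. In the former, 6 of 30 members were higher (*Wdr16*, *Armc4*, *Zmynd10*, *Ccdc40*, *Spag6* and *Enkur*), where 1.03% of all genes were. There 1 member was lower (*Lrrc6*), where 2.42% of all genes were. The median difference was 0.34 over the members and -0.02 over all genes. WT DT+ and WT DT- cochleae, both without the transgene, differed in toxin, mice and array. In the former, 5 of 28 members were higher (the same list without *Enkur*), where 1.55% of all genes were. There 0 members were lower, where 1.12% of all genes were. The median was 0.37, against -0.04 over all genes. Both counts of higher members hold *Wdr16*, which led the choice of the list. They also hold *Armc4*, *Ccdc40* and *Spag6*, which passed the filter only through WT DT+ and *Prestin*-*hDTR* DT- cochleae, where they were high. The shares over all genes therefore only set a scale.

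*Prestin*-*hDTR* DT+ and *Prestin*-*hDTR* DT- cochleae differed in toxin, and with it in outer hair cells, as well as in mice and array. In the former, 8 of 29 members were lower (*Wdr16*, *Armc4*, *Zmynd10*, *Tekt2*, *Enkur*, *Dnali1*, *Ccdc65* and *Dnaic2*), where 1.42% of all genes were. There 0 members were higher, where 2.71% of all genes were. The median difference was -0.35, against 0.01 over all genes. In *Prestin*-*hDTR* DT+ against WT DT+ cochleae, 5 of 25 members were lower (*Wdr16*, *Armc4*, *Zmynd10*, *Tekt2* and *Enkur*), where 1.95% were, and 1 was higher (*Rfx3*), where 1.52% were. The median there was -0.61, against 0.01 over all genes, but -0.28 over the members well above background on all 4 arrays and -0.15 with no filter on dim probes. Each array serves in 2 of the 4 comparisons, so these counts are not separate findings. *Wdr16*, which led the choice, and *Armc4*, which passed the filter only where it was high, enter all 4 comparisons. With normexp background correction, which adds an offset of 50 and shrinks differences of dim probes, *Wdr16* and *Armc4* alone were at 2-fold in each comparison, and the differences of *Zmynd10* were 0.91, 0.86, -0.92 and -0.86 on the log2 scale. Among the 18 members well above background on all 4 arrays, 2 and 1 were higher in the first 2 comparisons and 5 and 3 lower in the last 2. Shares over all genes were not formed with normexp or for genes well above background on all 4 arrays, so these counts have no scale.

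**Figure D3:**
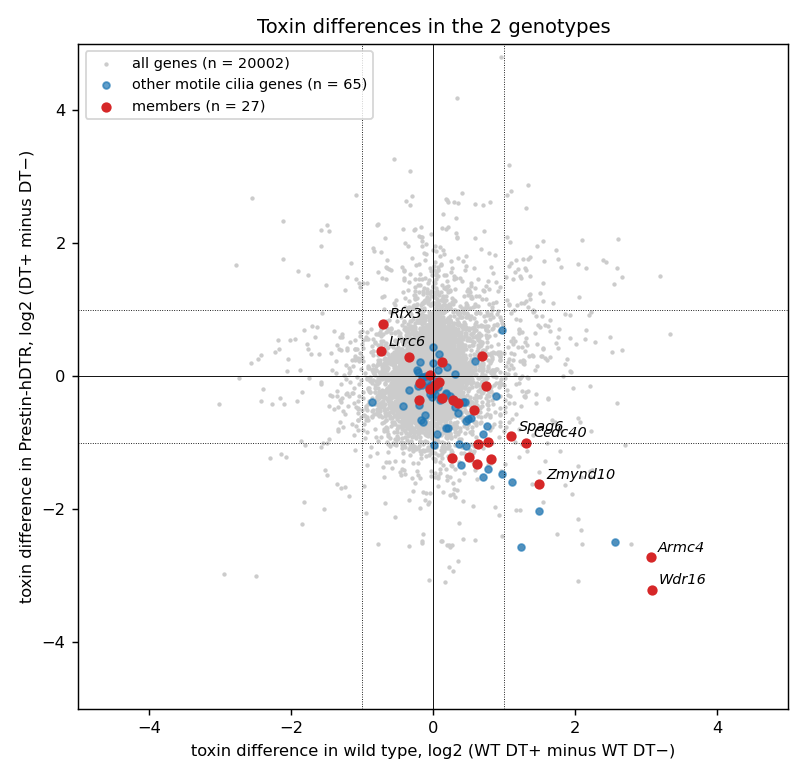
Log2 difference with DT in wild-type (horizontal) and in *Prestin*-*hDTR* cochleae (vertical), 1 point per gene, for 20002 genes with a probe well above background in each genotype (grey), 27 members (red) and 65 other motile cilia genes (blue), with dotted lines at 2-fold. *Wdr16*, *Armc4* and *Zmynd10* lie beyond 2-fold at the lower right, higher with DT in wild-type and lower with DT in *Prestin*-*hDTR* cochleae.

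The toxin difference in *Prestin*-*hDTR* minus that in wild-type cochleae could be formed for 27 members. It was -1 or lower on the log2 scale in 12 of them, where 1.88% of 20002 genes were, and 1 or higher in 2 (*Rfx3* and *Lrrc6*), where 2.18% were, the value of *Lrrc6* being set by the floors of the DT-treated arrays. The 12 include *Wdr16*, which led the choice of the list, and *Armc4*, *Ccdc40* and *Spag6*, which passed the filter only where they were high. The median over the members was -0.75. *Wdr16* had -6.28 ± 0.47, *Armc4* -5.78 with both low arrays at the floor, and *Zmynd10* -3.11 with 1 low array at the floor. A 2-fold rise with DT in wild-type and a 2-fold fall in *Prestin*-*hDTR* cochleae was found in these 3 members and in 33 genes in all, members included, or 0.150% of 21942 measured. The 15 brighter members had a median of -0.75 and the 12 dimmer ones -0.76. Among the brightest, *Rsph9*, *Tppp3*, *Ccdc114*, *Foxj1* and *Dnaic1* had values between -0.16 and 0.64, and *Tekt1*, of like signal, had -1.76.

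**Figure D4:**
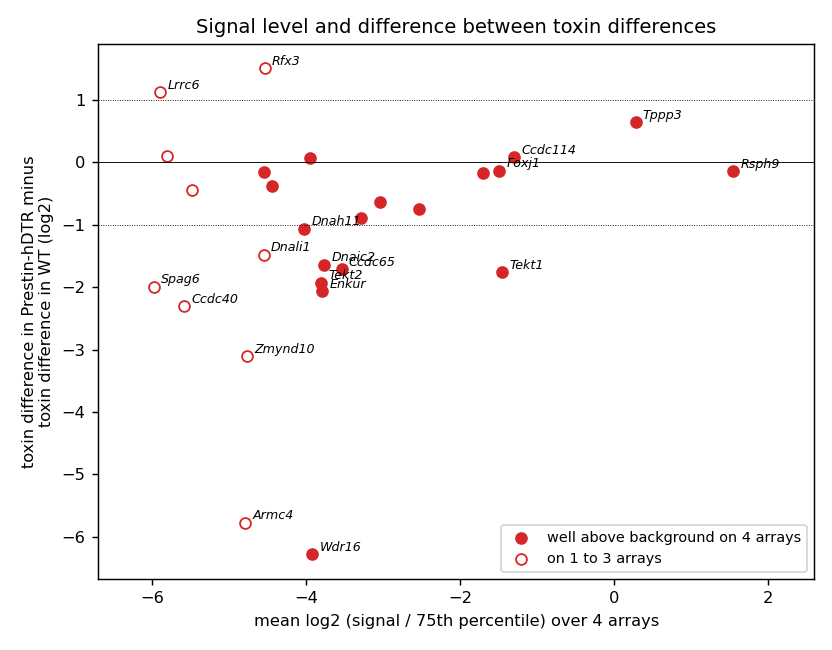
Mean log2 signal over the 4 arrays (horizontal) against the toxin difference in *Prestin*-*hDTR* minus that in wild-type cochleae (vertical, log2), 1 point per member (27), filled where the probe was well above background on 4 arrays. *Wdr16* and *Armc4* stand apart at -6.28 and -5.78, the brightest member *Rsph9* lies near 0, and *Rfx3* and *Lrrc6* lie above 1.

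Other genes of motile cilia, 92 in a second list of which 74 were measured, were set beside the members. The arrangement of *Wdr16* was found in 30 of the 74, where 11.3% of all genes had it, and at 2-fold in 4 (*Ttc29*, *Meig1*, *Fam183b* and *Mlf1*), where 0.123% had it. The opposite arrangement was found in 4, where 18.1% of all genes had it. *Ttc29* had signals of -3.37 and -2.95 in WT DT+ and *Prestin*-*hDTR* DT- cochleae and was not well above background in the other 2, at least 5.89-fold higher with DT in wild-type and at least 5.61-fold lower with DT in *Prestin*-*hDTR* cochleae. *Fam183b*, measured on all 4 arrays, had signals of -2.82, -1.59, -1.20 and -3.78. *Dynlrb2*, a dynein light chain of the roadblock family, had signals of -2.22, -1.25, -1.15 and -2.61. The median toxin difference in *Prestin*-*hDTR* minus that in wild-type cochleae was -0.30 over 65 of these genes, 17 of them at -1 or lower (1.88% of all genes) and 0 at 1 or higher (2.18%). In *Prestin*-*hDTR* DT- against WT DT- cochleae 6 of 74 were higher by 2-fold (1.03% of all genes) and 2 lower (2.42%). With DT in wild-type cochleae 4 of 66 were higher (1.55%) and 1 lower (1.12%). With DT in *Prestin*-*hDTR* cochleae 11 of 73 were lower (1.42%) and 1 higher (2.71%). In *Prestin*-*hDTR* DT+ against WT DT+ cochleae 8 of 64 were lower (1.95%) and 0 higher (1.52%). The 18 not well above background anywhere included *Dnah1*, *Dnah3*, *Dnah12*, *Nme8* and *Tekt3*. Of 36 genes of the primary cilium and of intraflagellar transport, the cargo system that builds all cilia, 36 were measured. Of these, 0 changed by 2-fold in any of the 4 comparisons. Between 1.03% and 2.71% of all genes did so per comparison and direction, so 0 in a list of this size is near that share. The arrangement of *Wdr16* was found in 11 of the 36, where 11.3% of all genes had it, with gaps of at most 0.13 (*Wdr35*). The opposite one was found in 0, where 18.1% of all genes had it.

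Markers of other cell types were set beside the members. Of 19 secretory genes of airway-type epithelium, 15 were measured and 2 had the arrangement of *Wdr16*, neither by 2-fold, a share near the 11.3% of all genes. The most variable, *Bpifa1*, had signals of 1.16, 1.96, 0.65 and -0.66, and *Cyp2f2* 0.30, 0.73, -0.30 and -1.05, both highest in WT DT+ and lowest in *Prestin*-*hDTR* DT+ cochleae, with WT DT- above *Prestin*-*hDTR* DT-. The summed level of the list, in multiples of the 75th percentile, was 24.5, 26.6, 23.4 and 17.7, and *Scgb1a1*, a defining secretory marker, stayed between -4.68 and -4.49. *Muc4*, *Tff2* and *Gabrp* were not well above background on any array. Of 8 choroid plexus genes, which mark another ciliated epithelium, 4 had the arrangement, again against 11.3% of all genes, and 0 by 2-fold, the summed level running from 12.3 to 13.7. Blood cell genes also differed between the arrays. The arrangement of *Wdr16* or its opposite was found in 0 of 13 neutrophil and 0 of 12 erythroid genes (11.3% and 18.1% of all genes). The summed level of the neutrophil list was 41.8, 65.7, 14.7 and 25.5. Of its genes, 4 of 13 were higher by 2-fold with DT in wild-type (1.55% of all genes) and 4 of 12 in *Prestin*-*hDTR* cochleae (2.71%). In *Prestin*-*hDTR* DT- against WT DT- cochleae 9 of 12 were lower (2.42%), and in *Prestin*-*hDTR* DT+ against WT DT+ cochleae 10 of 13 (1.95%). The summed level of the erythroid list was 7.23, 11.8, 8.39 and 9.79. Of its genes, 9 of 12 were higher by 2-fold with DT in wild-type (1.55% of all genes) and 4 of 10 in *Prestin*-*hDTR* cochleae (2.71%). In *Prestin*-*hDTR* DT- against WT DT- cochleae 1 of 10 was lower (2.42%), and in *Prestin*-*hDTR* DT+ against WT DT+ cochleae 8 of 12 were (1.95%). Both lists were thus highest in WT DT+ cochleae, and their summed levels were higher with DT in both genotypes. Of the 30 measured members, 16 were highest in *Prestin*-*hDTR* DT-, 6 in WT DT-, 5 in *Prestin*-*hDTR* DT+ and 3 in WT DT+ cochleae. Signals raised to the floor were counted, and the floor was lowest in *Prestin*-*hDTR* DT- cochleae (-6.39). The shares over all genes were not formed, so these counts have no scale. The arrangement of *Wdr16* was found in 4 of 12 supporting cell, 1 of 10 osteoblast and 0 of 5 basal epithelial genes, none by 2-fold. Of all genes, 11.3% had it. The part of these cell types in the differences of the members was not tested.

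Hair cell genes moved in part with the members. Of 14 measured, 9 had the arrangement of *Wdr16*, where 11.3% of all genes had it, none by 2-fold and some by little (0.02 in *Pcdh15*), and the summed level of the list was 27.0, 26.5, 29.9 and 18.5. *Gfi1*, a hair cell transcription factor, had signals of -0.34, 0.59, 0.71 and -1.37. *Myo15*, a stereocilia motor, had -0.93, -0.34, -0.36 and -2.82. Of 9 outer hair cell genes, 4 had the arrangement (*Chrna10*, *Chrna9*, *Strc* and *Lbh*), where 11.3% of all genes had it, with gaps of 0.02 to 0.35. Their summed level as a list of 9 was 25.8, 23.9, 26.0 and 6.36. *Chrna9*, a subunit of the receptor for efferent input, had signals of -1.24, -0.89, -0.74 and -3.52. *Strc* (-2.03, -1.87, -1.83 and -4.93) and *Ocm* (4.36, 4.21, 4.35 and 1.97) were far lower in *Prestin*-*hDTR* DT+ cochleae than in the other 3. *Slc26a5* was at -4.89, -4.47, -5.06 and -6.07, the last not well above background. The loss of outer hair cells, which the transgene was made for, and the low signal of the members in that array were not separated here.

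The genes outside the list with the pattern most like *Wdr16* were found by the root mean square distance between log2 signals centred on each gene's mean, over 4 arrays and 18230 genes. The nearest 10 were *Zcchc12*, *Cyp2g1*, *Cib3*, *1700001C02Rik*, *Skor1*, *Fam183b*, *Maats1*, *Mlf1*, *Gfi1* and *Lhx3*, at distances of 0.44 to 0.97. *Cib3*, a calcium-binding protein of vestibular hair cells, had signals of -3.02, -0.99, -0.85 and -3.93. *Zcchc12* had -4.96, -2.87, -2.61 and -5.13. Because *Cib3* stood so near, 9 genes of vestibular epithelium were looked up after its values were seen. Only *Cib3* and *Otol1*, a protein of otoconia, had the arrangement, 2 of 9, where 11.3% of all genes had it. The opposite arrangement was found in 3 of the 9, where 18.1% of all genes had it. *Otol1* was at -3.23, -3.05 and -4.08 in the last 3 arrays and not well above background in WT DT-. *Otop1* (-0.24 to 0.07), *Oc90* (-4.77 to -4.27), *Hmx3* (0.60 to 1.15) and *Anxa4* (1.02 to 1.32) did not have the arrangement. The summed level of the list was 11.4, 11.2, 11.7 and 9.97 in WT DT-, WT DT+, *Prestin*-*hDTR* DT- and *Prestin*-*hDTR* DT+ cochleae. The share of vestibular tissue in each dissection was not tested.

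**Figure D5:**
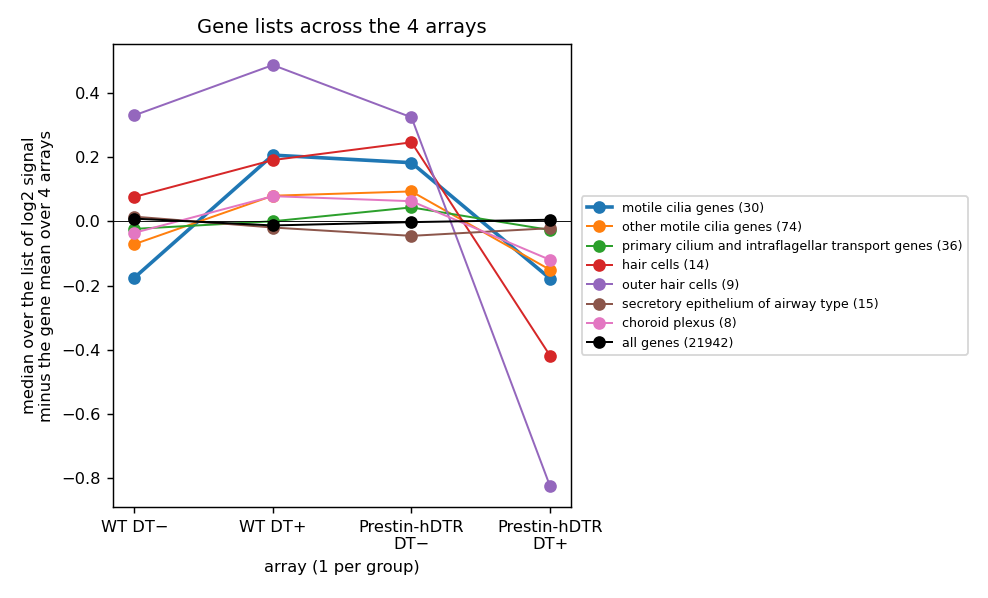
Median over each list of log2 signal minus the gene mean over the 4 arrays (vertical), by array (horizontal), with the number of measured genes in brackets. Members and other motile cilia genes are higher in the 2 middle arrays, hair cell and outer hair cell genes fall most in *Prestin*-*hDTR* DT+ cochleae, and secretory genes and all genes stay near 0.

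Promoters were searched because the members share known regulators and many moved together. RefSeq promoters (build GRCm38.p6, 250 bases before to 50 after the start site) were held for 27 members. The RFX core motif GTTGCC, searched on both strands, was found in 14 of them (51.9%), against 14.1% of 27025 genes, and the forkhead motif GTAAACA, also on both strands, in 1 (3.70%), against 4.05%. Windows upstream of the start site are shown for 3 members that moved and for *Hydin*, which did not, with capitals marking the RFX motif on either strand.
*Tekt1*, minus strand, chr11:72361883-72361952: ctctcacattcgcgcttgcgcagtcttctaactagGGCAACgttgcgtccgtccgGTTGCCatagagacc
*Enkur*, minus strand, chr2:21205366-21205434: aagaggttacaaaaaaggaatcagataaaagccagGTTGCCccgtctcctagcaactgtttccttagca
*Dnaic2*, plus strand, chr11:114727358-114727418: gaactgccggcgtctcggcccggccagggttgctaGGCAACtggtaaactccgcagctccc
*Hydin*, plus strand, chr8:110266929-110266976: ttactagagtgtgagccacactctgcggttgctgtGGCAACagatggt
The RFX motif was present in members that differed between arrays and in others that ranged over little, such as *Iqcg* (0.22) and *Hydin* (0.30). Of *Wdr16* and *Zmynd10*, whose promoters were held, *Zmynd10* had it, downstream of its start site. A match of letters is a description and says nothing of binding.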

How the data were processed

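Agilent 1-colour arrays of cochlear RNA were used, 1 per group and 4 in all. The deposited files hold intensity values per spot, which the authors made with Agilent Feature Extraction 11.5.1.1, per the submitters' processing notes, with background subtracted and no scaling between arrays. The deposited value table holds intensity after division by an array-wide constant. Control and outlier spots were left out, spots of a probe were averaged, signals were divided by the 75th percentile of the array and log2 was taken. Signals not well above background were raised to the lowest signal well above background on that array. Each gene was represented by its brightest probe, provided that some array measured it well above background. The errors come from the deposited intensity errors. With 1 array per group no test was possible, and members at 2-fold or more were counted beside all genes. Probe transcripts were matched to current symbols by accession for 30 members and by symbol for 3, using RefSeq tables of GRCm38.p6.

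The members, the other lists and the rules were chosen with earlier results of these data known. All members were named. From other lists, up to 6 genes at 2-fold or more were eligible, with the 10 genes nearest to *Wdr16*, and other marker genes (among them *Scgb1a1*, *Slc26a5*, *Otop1* and *Dnah1*) are named as defining or undetected markers. *Wdr35*, *Pcdh15*, *Chrna10*, *Chrna9* and *Lbh* were named after their values were seen. The vestibular list was added after *Cib3* was seen. Normexp background correction used limma 3.58.1 in R 4.3.3. The scripts were tested on simulated data.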

Additional observations from a re-analysis of the deposited data

Results flagged for a closer look

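In 3 members the difference with DT was 2-fold or more in opposite directions in the 2 genotypes, each genotype being 1 array with and 1 without DT. The toxin difference in *Prestin*-*hDTR* minus that in wild-type cochleae was -6.28 on the log2 scale for *Wdr16*, -5.78 for *Armc4* and -3.11 for *Zmynd10*. The difference between genotypes was not tested, as there was no replicate, and arrays, mice and groups cannot be told apart.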

How the results depend on the processing

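No paired analysis was possible because each group had 1 array, and leaving out an array leaves no comparison. No median of the members and no *Wdr16* difference changed sign under the alternatives run, and of 201 values 155 moved by less than the spread (the repeat-spot SD for medians, the spot error for *Wdr16*) or, for counts, by at most 1.5 times. The alternatives for the difference between toxin differences and for the arrangement of the arrays were chosen after seeing the data. Shares over all genes were formed with the main settings only, so the counts of members under the alternatives below have no such scale. *Wdr16* had no other probe to try. Quantile and median scaling, and the deposited value table, moved none of these values beyond that limit.

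With normexp, the *Wdr16* difference was 2.46 in *Prestin*-*hDTR* DT- against WT DT-, 2.20 with DT in wild-type, -2.43 with DT in *Prestin*-*hDTR*, -2.16 between DT-treated groups and -4.62 between toxin differences. The member medians were then 0.17 for *Prestin*-*hDTR* DT- against WT DT-, -0.25 with DT in *Prestin*-*hDTR* and -0.28 between DT-treated groups. Members at 2-fold were 2 higher and 0 lower, 2 higher, 2 lower, and 0 higher with 2 lower, in the same order of 4 comparisons. The difference between toxin differences was 1 or higher in 1 member, and 7 members had the arrangement opposite to *Wdr16*.

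With members well above background on all 4 arrays, the counts were 2 higher and 0 lower, 1 higher, 5 lower, and 0 higher with 3 lower. The median between DT-treated groups was -0.28, the difference between toxin differences was -1 or lower in 7 and 1 or higher in 0, and 11 had the arrangement of *Wdr16*, 1 of them by 2-fold, with 1 opposite. Without a filter the medians were -0.19 with DT in *Prestin*-*hDTR*, -0.15 between DT-treated groups and -0.45 between toxin differences.

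Without the floor, 13 members were lower with DT in *Prestin*-*hDTR* (median -0.56), the median between DT-treated groups was -0.78, 5 members had the arrangement by 2-fold and 1 was higher in the difference between toxin differences. With the mean of probes the median between DT-treated groups was -0.46, with 0 higher, and 1 was higher in the difference between toxin differences. Without *Wdr16* that median was -0.49. At 1.5-fold, 13 and 11 members were higher in the first 2 comparisons, 2 lower with DT in wild-type, 2 higher with DT in *Prestin*-*hDTR*, 13 lower between DT-treated groups, and 9 had the arrangement. The cause of these shifts was not tested. Of the 30 members, 12 were not well above background on every array, and their folds are bounds, or are not given, wherever a dim array enters.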
